A study of Mus musculus with 8 samples.

Results

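The genes described are 8 mitogen-activated protein kinases (MAP kinases) of the ERK, JNK and p38 groups, followed in the corpus callosum of PLP-150Q mice given LAQ or purified water. They are Mapk3 (ERK1), Mapk8, Mapk9 and Mapk10 (JNK1, JNK2 and JNK3), and Mapk14, Mapk11, Mapk12 and Mapk13 (p38 alpha, beta, gamma and delta). They were taken by symbol from a table of 41128 genes, and all 8 were found there. The genes were chosen by family membership with the counts of this table, in LAQ and in control, already seen. Their differences are therefore given as a description, with no p-value printed for a member, and support nothing by themselves. Members that passed a test are counted beside the result over all genes, and nothing is read from those counts.

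PLP-150Q mice model Huntington's disease: the proteolipid protein promoter drives a fragment of mutant huntingtin in oligodendrocytes, the myelin-forming cells. All 8 libraries come from this line. LAQ is taken to be laquinimod, an immune-modulating quinoline drug given by mouth. The 4 LAQ libraries (replicates 5 to 8) came from mice treated with 5 mg/kg from 3 months of age for 2 months, and the 4 control libraries (replicates 1 to 4) from mice on purified water over the same time. All were sampled at 5 months. No library of mice without the transgene was analysed here, so the comparison shows LAQ against vehicle within the model and says nothing of the disease itself. The labels do not say that each library is a separate mouse, and if some are not, the spread between libraries may be technical.

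MAP kinases are the last tier of a relay in which a MAP3K phosphorylates a MAP2K, which phosphorylates the MAP kinase on a threonine and a tyrosine in its activation loop. ERK kinases answer mainly to growth factors and synaptic activity, and JNK and p38 kinases mainly to stress and cytokines. In oligodendrocytes, ERK signalling is known for its part in myelin growth and p38 signalling for its part in differentiation, while JNK3 is the JNK largely restricted to neurons. Activity depends on phosphorylation, so transcript levels do not measure it.

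Total counts were 9634156 to 12021429 in the LAQ libraries and 8790749 to 11972197 in the control libraries, and the 8 kinases took 0.0858% to 0.0972% of the counts in LAQ and 0.0930% to 0.0980% in control. One library stood apart. The chi-square per degree of freedom between LAQ 7 and the other LAQ libraries was 15.02 to 23.89, against 7.44 to 8.43 among LAQ 5, 6 and 8 and 4.07 to 5.75 among control libraries. The piece also held neuronal RNA: the 6 pan-neuronal markers, all detected, summed to 4357 to 5853 CPM (read counts scaled to library size) in LAQ and 5488 to 5882 CPM in control, beside 12594 to 16503 CPM in LAQ and 11887 to 13656 CPM in control for 8 myelin genes, which also had no marker at 0.

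The p38 genes held the widest difference of the family, and the starts of its 2 most abundant members are printed here for that reason. Mapk11, whose level differed most between the groups, is a protein-coding gene on chromosome 15 from 89142486 to 89149628 on the minus strand. Mapk14, the most abundant p38 gene, lies on chromosome 17 from 28691329 to 28748406 on the plus strand. Both positions are from GENCODE M21 on GRCm38. The sequences cover 250 bases before and 50 after an annotated start, from RefSeq on GRCm38.p6, written 5′ to 3′ on the gene's strand. Capitals mark the GC box, GGGCGG or its reverse complement CCGCCC, a motif bound by Sp1-family factors.
Mapk11, chr15:89149557-89149856, minus strand: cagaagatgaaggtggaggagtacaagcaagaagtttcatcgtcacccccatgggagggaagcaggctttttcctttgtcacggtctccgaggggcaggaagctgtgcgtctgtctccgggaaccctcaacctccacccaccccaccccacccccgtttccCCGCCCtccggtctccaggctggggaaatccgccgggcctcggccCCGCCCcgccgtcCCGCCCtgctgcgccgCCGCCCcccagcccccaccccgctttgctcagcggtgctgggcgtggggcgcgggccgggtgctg
Mapk14, chr17:28691092-28691391, plus strand: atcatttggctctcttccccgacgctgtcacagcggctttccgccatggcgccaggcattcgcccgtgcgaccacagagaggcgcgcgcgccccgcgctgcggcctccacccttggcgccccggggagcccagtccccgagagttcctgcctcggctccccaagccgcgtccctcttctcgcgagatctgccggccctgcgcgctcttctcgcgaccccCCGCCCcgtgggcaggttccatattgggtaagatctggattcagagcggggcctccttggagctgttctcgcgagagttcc

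The Mapk11 window held 4 GC boxes, 24 CpG dinucleotides and 69.7% G and C. The Mapk14 window held 1 GC box, 33 CpG dinucleotides and 68.7% G and C. A GC box was present in 35.7% of the 32851 promoter windows of this length, whose median was 7 CpG dinucleotides and 52.7% G and C. Neither window held the AP-1 motif TGANTCA (both strands, in 7.81% of all windows), the cyclic AMP response element TGACGTCA (1.79%), TATAAA (13.6%) or the E-box CACGTG (7.15%). The windows were found for 7 of the 8 genes, in 10 entries, and the Mapk14 window shown is the one at the start of the gene. Of the other members, Mapk10 had TGACGTCA in 1 of its 2 windows and TATAAA, at 2 places, in the other, and Mapk12 had CACGTG. Of GC boxes, the Mapk8 window at the start of the gene held 7, that of Mapk13 5, and those of Mapk9 and Mapk12 1 each. The remaining windows, of Mapk8, Mapk10 and Mapk14, held 0. These are letter matches only.

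Mapk11 encodes p38 beta, the close relative of p38 alpha that responds to the same stress signals and inhibitors. It stood at 35.1, 33.9, 39.5 and 41.2 CPM in LAQ 5, 6, 7 and 8, against 60.7, 64.6, 46.7 and 57.4 CPM in control 1, 2, 3 and 4. Every LAQ library was below every control library, with control 3 the nearest to the LAQ range. The means were 37.4 ± 3.48 CPM in LAQ and 57.3 ± 7.69 CPM in control (SD, n = 4 each), and the log2 fold change was -0.62 ± 0.11 (SE), or 0.652-fold. Raw counts were 368 to 480 in LAQ and 408 to 693 in control, so counting error was small beside the difference.

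Mapk14 encodes p38 alpha, the most widely expressed p38 kinase and the one most studied in inflammation. It stood at 126, 111, 114 and 123 CPM in LAQ 5, 6, 7 and 8, against 116, 113, 127 and 113 CPM in control 1 to 4. The groups overlapped throughout, and the log2 fold change was 0.02 ± 0.07 (SE). The 2 remaining p38 genes were scarce. Mapk12 (p38 gamma, known best from skeletal muscle) ranged from 2.97 to 5.62 CPM in LAQ and from 4.39 to 6.50 CPM in control, with a log2 fold change of -0.32 ± 0.23 (SE). That value was -0.18 without LAQ 6, -0.20 without control 1 and -0.48 without LAQ 5, and -0.59 with the myelin score as covariate. Its level is uncertain because it rests on few reads, 33 to 68 per library. About 2.1% of the 50-base stretches of Mapk12 transcripts also occur in transcripts of many other genes. Whether such reads were counted was not examined. Mapk13 (p38 delta) had 13, 7, 4 and 7 reads in LAQ 5 to 8, against 11, 8, 5 and 3 reads in control 1 to 4, and it lay below the expression filter. The main fit gave no fold change for Mapk13, and at this depth a small change could be missed.

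**Figure D1:**
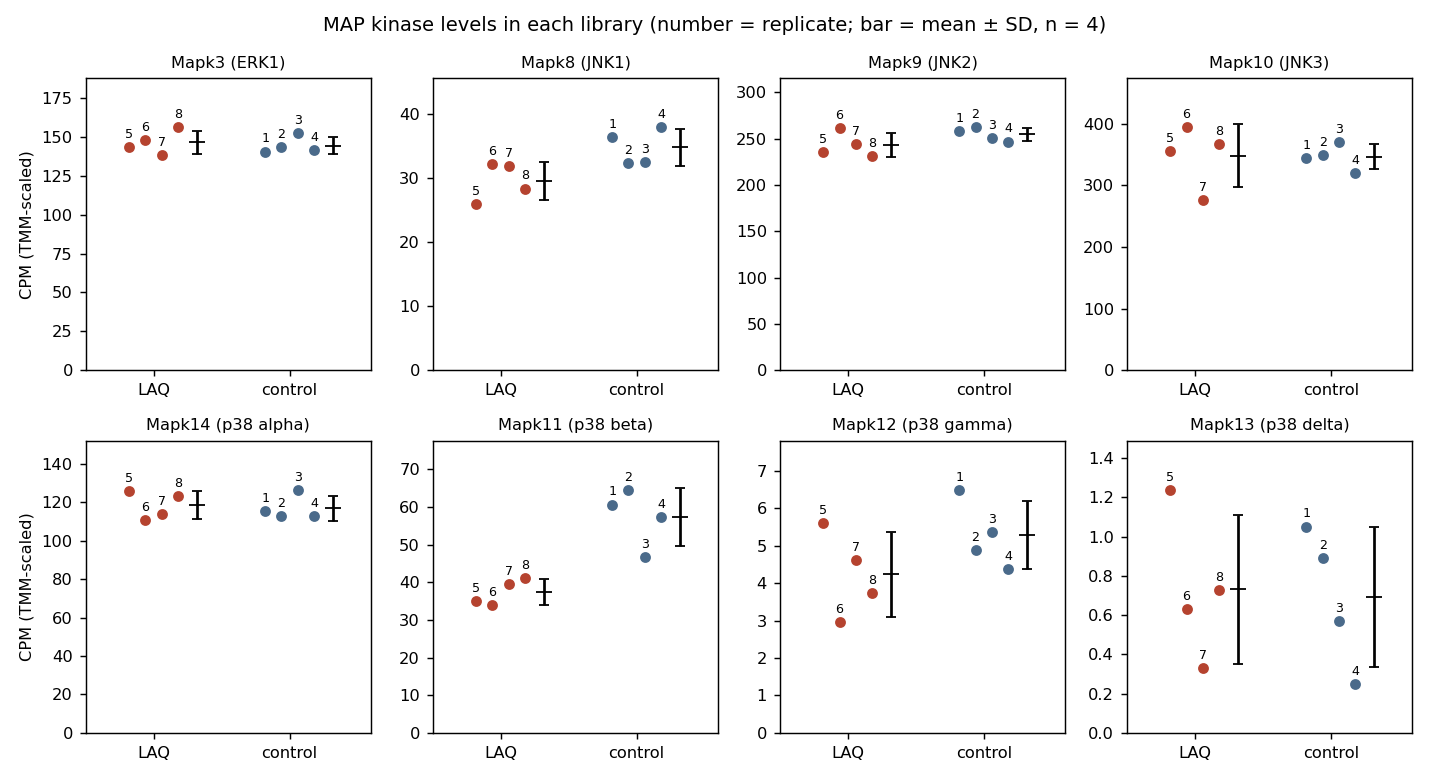
Levels in CPM (read counts scaled to library size with TMM, the trimmed mean of M values) of the 8 MAP kinases, one panel per gene with its own axis from 0. Each point is a library with its replicate number, LAQ left of control, and the bars are mean ± SD (n = 4). The LAQ points of Mapk11 (33.9 to 41.2 CPM) lie below all control points (46.7 to 64.6 CPM), while those of Mapk3, Mapk9, Mapk10 and Mapk14 overlap with control.

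The make-up of the p38 transcripts differed accordingly. To compare genes, CPM were divided by the length of each gene's merged exons. On that per-length scale Mapk11 made up 28.4%, 30.9%, 33.3% and 32.7% of the p38 total in LAQ 5 to 8, against 42.5%, 45.0%, 34.6% and 42.4% in control 1 to 4. Mapk14 made up 65.5 ± 1.77% in LAQ and 55.5 ± 4.45% in control (SD, n = 4 each). The shares of both genes did not overlap between the groups, and they restate the Mapk11 difference, since Mapk14 hardly moved. Mapk12 and Mapk13 together stayed a small remainder, with means of 2.68% and 0.557% in LAQ and 2.88% and 0.450% in control. Summed without length scaling, the p38 genes stood at 148 to 169 CPM in LAQ and 175 to 184 CPM in control.

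**Figure D2:**
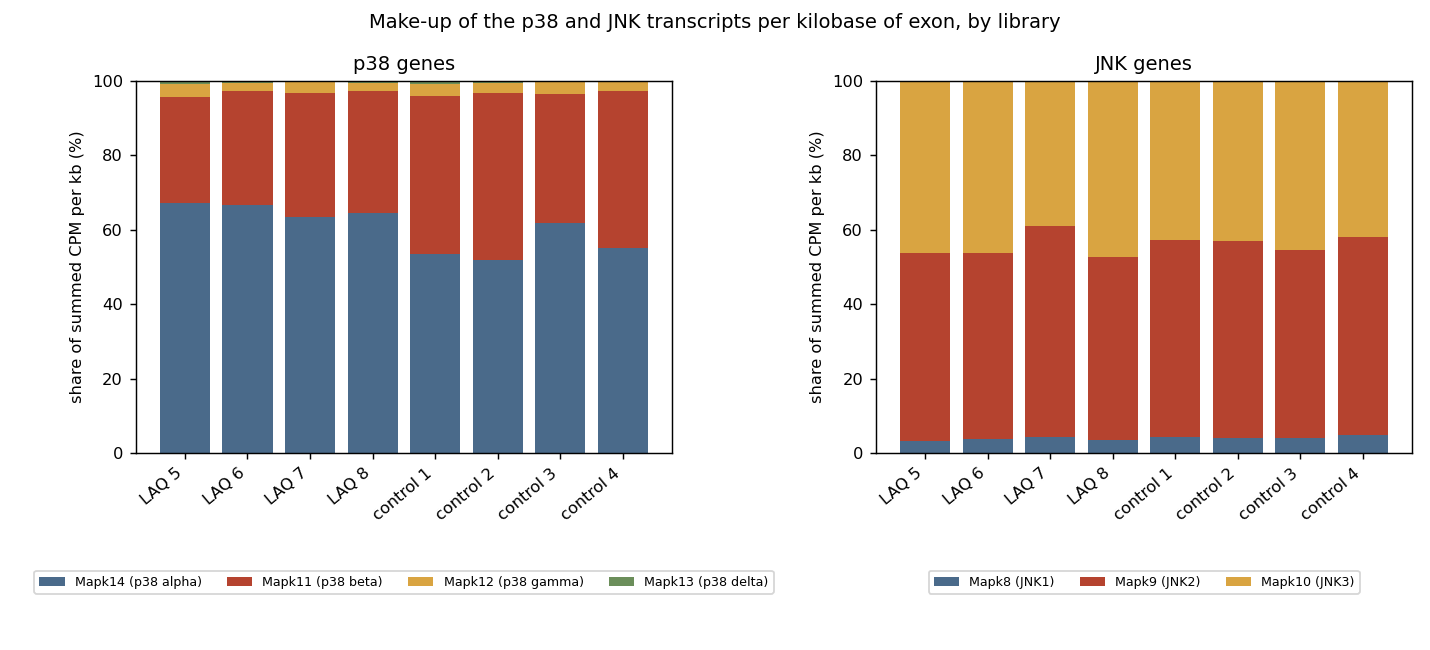
Stacked bars of each gene's share, in percent, of the summed CPM per kilobase of exon of the p38 genes (left) and of the JNK genes (right), one bar per library, LAQ libraries first. Mapk11 takes 28.4% to 33.3% of the p38 bar in LAQ and 34.6% to 45.0% in control, while in the JNK bars only LAQ 7 stands out, with 39.0% Mapk10.

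Of the JNK genes, Mapk10 and Mapk9 were abundant and showed no separation of the groups. Mapk10 encodes JNK3, the form known for its part in neuronal stress and apoptosis. It stood at 356, 394, 276 and 366 CPM in LAQ 5 to 8, against 345, 349, 371 and 320 CPM in control 1 to 4. Its lowest value was in LAQ 7 and its highest in LAQ 6, and the log2 fold change was 0.01 ± 0.10 (SE), or 0.10 without LAQ 7. LAQ 7 was also lowest in the 8 cortical excitatory neuron markers, at 730 CPM summed, against 1549 to 1692 CPM in the other LAQ libraries and 1337 to 1692 CPM in control. With the score of these markers as a covariate the log2 fold change of Mapk10 was 0.16, and with a score of the myelin markers it was 0.28. The myelin score largely followed the groups. LAQ 7 was also the highest library in the summed myelin markers (16503 CPM) and striatal markers (2613 CPM). The part of any of these markers in the Mapk10 values was not tested. Mapk9 encodes JNK2. It ranged from 232 to 261 CPM in LAQ and from 247 to 263 CPM in control, with a log2 fold change of -0.07 ± 0.06 (SE). Leaving out LAQ 6 made it -0.10, and leaving out LAQ 8 made it -0.04.

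Mapk8 encodes JNK1, which in neurons is known for phosphorylating microtubule-associated proteins. It stood at 25.9, 32.2, 31.9 and 28.4 CPM in LAQ 5 to 8, against 36.4, 32.3, 32.5 and 37.99 CPM in control 1 to 4. The groups touched: LAQ 6 and LAQ 7 were within 1 CPM of control 2 and control 3. The log2 fold change was -0.23 ± 0.10 (SE). The LAQ libraries were all lower under TMM scaling, but the groups overlapped under median-of-ratios scaling and with library size alone.

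Mapk3 encodes ERK1, a kinase of the growth factor pathway. It ranged from 139 to 156 CPM in LAQ and from 141 to 152 CPM in control, and its log2 fold change was 0.02 ± 0.06 (SE). Its biological coefficient of variation, the relative spread between libraries of a group beyond counting error, was 7.56%, the smallest of the family. Those of Mapk9 (7.79%), Mapk14 (7.99%), Mapk8 (9.93%), Mapk11 (10.8%) and Mapk10 (11.1%) were likewise below the median of 11.9% over the 15771 genes tested, and that of Mapk12 was 19.1%. The coefficient of Mapk11 was close to that median, but edgeR moderates these values across genes. Without moderation, and with counting error included, the SD over the mean of Mapk11 CPM was 9.31% in LAQ and 13.4% in control.

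**Figure D3:**
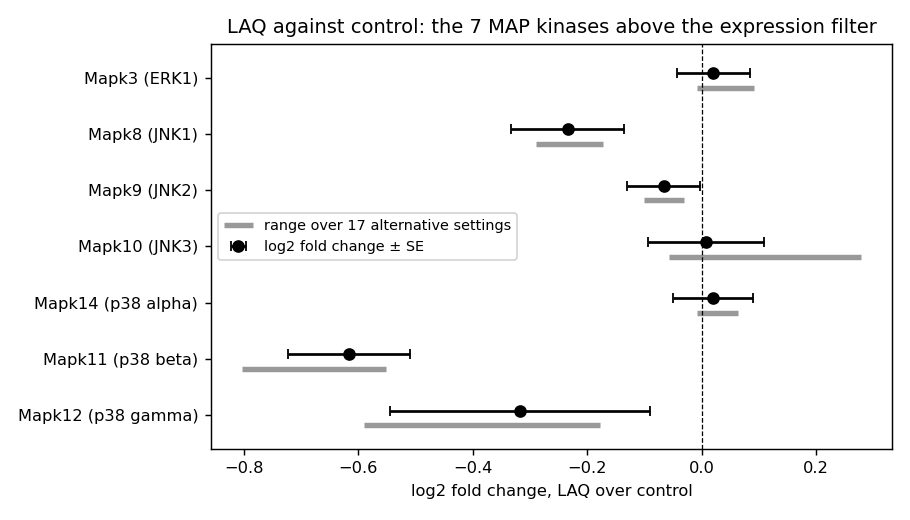
Log2 fold change of LAQ over control for the 7 MAP kinases above the expression filter. Points with bars are the edgeR estimates ± SE with all 8 libraries, and grey bars span the lowest to the highest estimate over 17 alternative settings. Mapk11 ran from -0.80 to -0.55 over the settings, while Mapk3, Mapk10 and Mapk14 lay on both sides of 0.

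By edgeR's quasi-likelihood test with Benjamini-Hochberg adjustment, 0 of the 7 members tested had an adjusted p under 0.05, and 0 of all 15771 genes (0%) did. At an unadjusted edgeR p under 0.05 there were 2 members, Mapk11 and Mapk8, beside 1750 of all genes (11.1%). DESeq2 called 1 member, Mapk11, and 129 of 15258 genes (0.845%). Without LAQ 7 edgeR called 1 member, again Mapk11, and 2.13% of all genes. Mapk11 was also the 1 member called without an expression filter (0.0993% of all genes), with the cortical neuron score as covariate (3.93%) and with the myelin score as covariate (2.64%). These calls were 5 of 17 alternative settings. Mapk11 was not called with limma voom, robust edgeR, median-of-ratios scaling, library size alone or a filter of 1 CPM in 4 libraries. Leaving out any library but LAQ 7 gave no call either. In 2 members, Mapk11 and Mapk8, all LAQ libraries were below all control libraries under TMM scaling, as in 3.61% of all tested genes, and under the other 2 scalings this held for Mapk11 alone. Because the family was chosen with this comparison in view, nothing is read from these counts.

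Per kilobase of exon, Mapk3 had the highest level, at 64.9 ± 3.36 in LAQ and 64.0 ± 2.38 in control (CPM per kb, SD, n = 4 each). Mapk9 followed with 35.9 ± 1.93 in LAQ and 37.6 ± 1.06 in control, then Mapk10 with 31.3 ± 4.57 in LAQ and 31.1 ± 1.86 in control, and Mapk14 with 27.1 ± 1.64 in LAQ and 26.7 ± 1.49 in control. The ranges of Mapk9 and Mapk10 overlapped in LAQ but not in control, and those of Mapk10 and Mapk14 overlapped in both groups. Within each library, however, Mapk9 was above Mapk10. Mapk10 was above Mapk14 in every library but LAQ 7, where the order was reversed. Mapk11 came next at 13.0 ± 1.21 CPM per kb in LAQ and 19.9 ± 2.66 CPM per kb in control. Mapk8 stood at 2.59 ± 0.26 in LAQ and 3.04 ± 0.25 in control, Mapk12 at 1.11 ± 0.30 in LAQ and 1.39 ± 0.24 in control, and Mapk13 at 0.232 ± 0.120 in LAQ and 0.219 ± 0.113 in control (CPM per kb). Merged exons include every annotated transcript, 11444 bases for Mapk8 but 2257 for Mapk3, so a gene that uses a short form in this tissue is understated.

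Mapk11 was set beside markers of the cells in the piece. In bulk tissue, fewer cells of a type and less RNA per cell cannot be told apart. Its lowest values were in LAQ 5 and LAQ 6, where the cortical excitatory markers summed to 1679 and 1692 CPM, at the upper end of the control range. Most of that sum was Slc17a7, a vesicular glutamate transporter gene, at 982 ± 350 CPM in LAQ and 1083 ± 129 CPM in control (SD, n = 4 each). Single markers did not all follow it. Cux2, an upper-layer transcription factor, averaged 23.6 ± 4.74 CPM in LAQ and 39.99 ± 5.74 CPM in control, with every LAQ library below every control library, and a log2 fold change of -0.76 ± 0.15 (SE; edgeR adjusted p = 0.140). Rorb, a layer marker, stood at -0.41 ± 0.13 (SE; edgeR adjusted p = 0.309) and Neurod6 at 0.65 ± 0.37 (SE; edgeR adjusted p = 0.531). The part of upper-layer neurons in the Mapk11 difference was not tested. With the mean score of all 8 markers as a covariate the log2 fold change of Mapk11 was -0.70, and with the myelin score it was -0.80. Without LAQ 7 it was -0.65. In control the myelin score ran from -1.11 to -0.23, and in LAQ 5 to 8 it was 0.46, -0.38, 1.68 and 0.61. This score largely followed the groups, so adjustment for it cannot be fully separated from treatment. Other marker lists differed too, and their part in the result was not tested. The 5 ependymal markers, all detected, summed to 35.2 to 48.4 CPM in LAQ and 20.5 to 31.0 CPM in control. The 6 thalamic markers, all detected, summed to 173 to 306 CPM in LAQ and 270 to 394 CPM in control. The 5 endothelial markers, with none at 0, summed to 101 to 220 CPM in LAQ and 165 to 227 CPM in control. The 5 dentate and hippocampal markers, all detected, summed to 202 to 351 CPM in LAQ and 157 to 245 CPM in control, with a median log2 fold change of 1.04. The 5 choroid plexus markers, all detected, summed to 1273 to 3607 CPM in LAQ and 384 to 2469 CPM in control, with a median of 0.79. The 5 striatal markers found, none at 0, summed to 403 CPM in LAQ 5 and 2613 CPM in LAQ 7, the lowest and highest of all libraries, against 1086 to 1425 CPM in control.

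**Figure D4:**
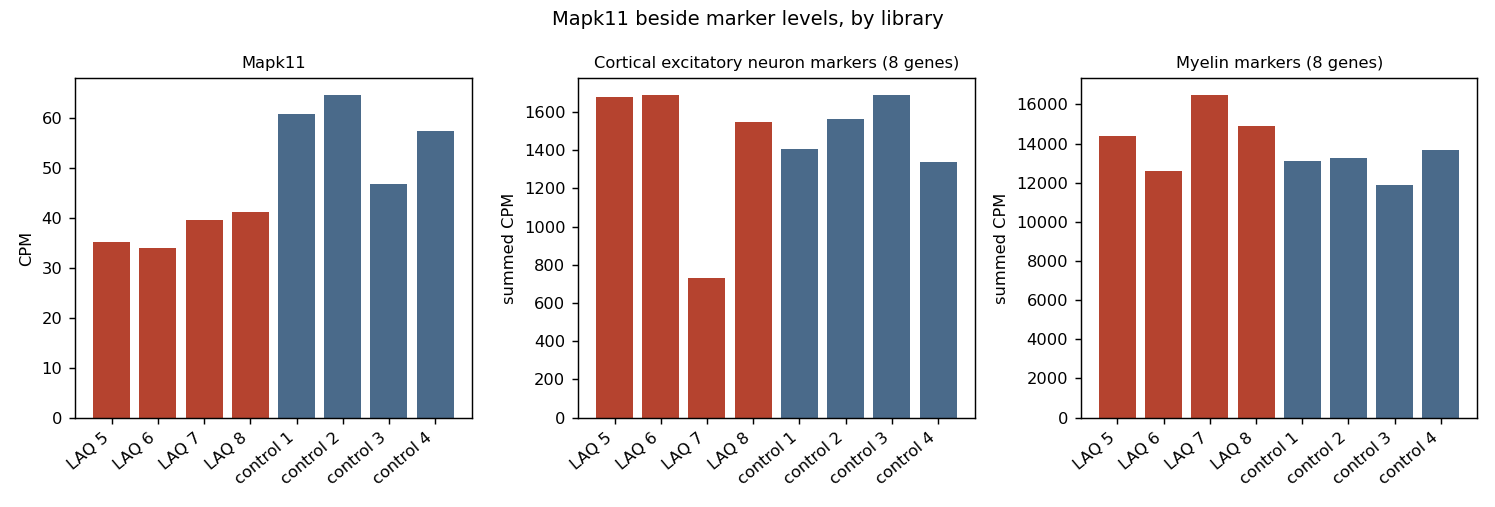
Mapk11 (left, CPM), the summed level of 8 cortical excitatory neuron markers (middle) and of 8 myelin markers (right), one bar per library with axes from 0, LAQ libraries (red) left of control (blue). Mapk11 is lower in all 4 LAQ bars than in control. The sum of the cortical markers, most of which is Slc17a7, is lowest in LAQ 7 (730 CPM), and single markers differ from it.

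Mapk11 and Mapk12 are neighbours on chromosome 15, both on the minus strand, with start sites 8.93 kb apart. Hdac10, a histone deacetylase gene whose start is 20.93 kb downstream of that of Mapk11, stood at 22.4 ± 1.97 CPM in LAQ and 26.9 ± 1.35 CPM in control (SD, n = 4 each). Its libraries did not overlap between the groups, and its log2 fold change was -0.26 ± 0.10 (SE; edgeR adjusted p = 0.360). Tubgcp6 (-0.21 ± 0.08, SE; edgeR adjusted p = 0.385) and Dennd6b (-0.25 ± 0.12, SE; edgeR adjusted p = 0.450) were also on the lower side, and Plxnb2 was not, at 0.10 ± 0.10 (SE; edgeR adjusted p = 0.764). None of the tested neighbours within 50 kb passed the test. No exon of another annotated gene overlaps those of any of the 8 kinases, and no 50-base stretch of Mapk11 transcripts occurs in another gene's transcripts.

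The kinases above and below the family were followed as 9 lists by role, which together held 87 genes, of which 84 were tested. By edgeR, 0 of the 84 passed an adjusted p under 0.05. At an unadjusted p under 0.05 there were 11 lower in LAQ (13.1%) and 0 higher, beside 6.33% lower and 4.77% higher over all genes. The median log2 fold change was -0.04, against -0.001 over all genes tested. In 8 genes every LAQ library was below every control library (9.52%, against 3.61% of all genes), and in 1 gene every LAQ library was above (1.19%, against 2.78%). The lists were chosen with earlier results known, so these shares are descriptions.

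Map2k3, which encodes MKK3, a MAP2K that activates p38 kinases, was the member of smallest p among the 4 kinases just above JNK and p38. It stood at 24.9, 22.9, 26.1 and 24.0 CPM in LAQ 5 to 8, against 31.3, 30.9, 33.4 and 30.2 CPM in control 1 to 4. The groups were apart, as with Mapk11, and the log2 fold change was -0.36 ± 0.08 (SE; edgeR adjusted p = 0.181). The other 3 were on the higher side, with a log2 fold change of 0.16 ± 0.08 (SE; edgeR adjusted p = 0.467) for Map2k7, a JNK activator, and 0.04 ± 0.10 (SE; edgeR adjusted p = 0.907) for Map2k4. In the ERK branch, Map2k1, which encodes MEK1, averaged 381 ± 44.6 CPM in LAQ and 334 ± 15.9 CPM in control (SD, n = 4 each), with LAQ 7 the lowest library of all at 315 CPM. Its log2 fold change was 0.19 ± 0.09 (SE; edgeR adjusted p = 0.450). Araf, a RAF kinase, was the gene whose LAQ libraries were all above control, at 245 ± 9.47 CPM in LAQ and 227 ± 3.00 CPM in control (log2 fold change 0.11 ± 0.06, SE; edgeR adjusted p = 0.504). Map2k2, which encodes MEK2, had a log2 fold change of -0.15 ± 0.07 (SE; edgeR adjusted p = 0.470).

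Of the 18 MAP3Ks and partners tested, 13 had a negative log2 fold change (list median -0.08, against -0.001 over all genes tested). Of the 18 tested, 4 were lower in LAQ at an unadjusted edgeR p under 0.05, beside 6.33% of all genes tested. Map3k10, which encodes the mixed-lineage kinase MLK2 upstream of JNK, averaged 77.9 ± 12.2 CPM in LAQ and 104 ± 11.99 CPM in control (SD, n = 4 each), and the log2 fold change was -0.41 ± 0.11 (SE; edgeR adjusted p = 0.249). Map3k9 (MLK1) stood at -0.37 ± 0.13 (SE; edgeR adjusted p = 0.360), and Map3k6, an ASK-family kinase with only 1.59 ± 0.46 CPM in LAQ and 3.00 ± 0.27 CPM in control, at -0.93 ± 0.26 (SE; edgeR adjusted p = 0.249). The scaffold, dual-specificity phosphatase and ERK feedback inhibitor lists (the last with Sprouty and Spred genes and Errfi1) had 9, 9 and 7 genes tested. None of these genes had an unadjusted edgeR p under 0.05 (11.1% of all genes did), and in none were the groups apart. Their smallest p-values belonged to Spag9 (JIP4; log2 fold change -0.12 ± 0.08, SE), Dusp16 (a JNK and p38 phosphatase; 0.28 ± 0.13) and Spred3 (-0.17 ± 0.11).

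Among 10 kinases that ERK or p38 activate, Mknk2, which phosphorylates the cap-binding factor eIF4E, had the smallest p, with a log2 fold change of -0.21 ± 0.08 (SE; edgeR adjusted p = 0.399). Of the 16 transcription factors, 11 were on the lower side, with a list median log2 fold change of -0.07, against -0.001 over all genes tested. Mef2c, a factor that p38 phosphorylates and that cortical neurons and microglia express, stood at 213, 217, 196 and 163 CPM in LAQ 5 to 8, against 260, 293, 241 and 263 CPM in control 1 to 4. The groups did not overlap, and the log2 fold change was -0.42 ± 0.10 (SE; edgeR adjusted p = 0.181). DESeq2 called Mef2c and no other gene of these lists. Etv4, an ETS factor induced through ERK signalling, had a log2 fold change of -0.51 ± 0.17 (SE; edgeR adjusted p = 0.329), and Jund, a JUN-family member, one of -0.23 ± 0.08 (SE; edgeR adjusted p = 0.349). Of the immediate early genes, Fos had a log2 fold change of -0.31 ± 0.27 (SE), Egr1 -0.21 ± 0.13, Junb -0.06 ± 0.20 and Jun 0.13 ± 0.15. Of the atypical MAP kinases, Nlk, a kinase of Wnt signalling, averaged 27.4 ± 0.81 CPM in LAQ and 34.8 ± 3.57 CPM in control (SD, n = 4 each), and the log2 fold change was -0.34 ± 0.09 (SE; edgeR adjusted p = 0.235), and Mapk6 (ERK3) stood at -0.23 ± 0.09 (SE; edgeR adjusted p = 0.402).

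**Figure D5:**
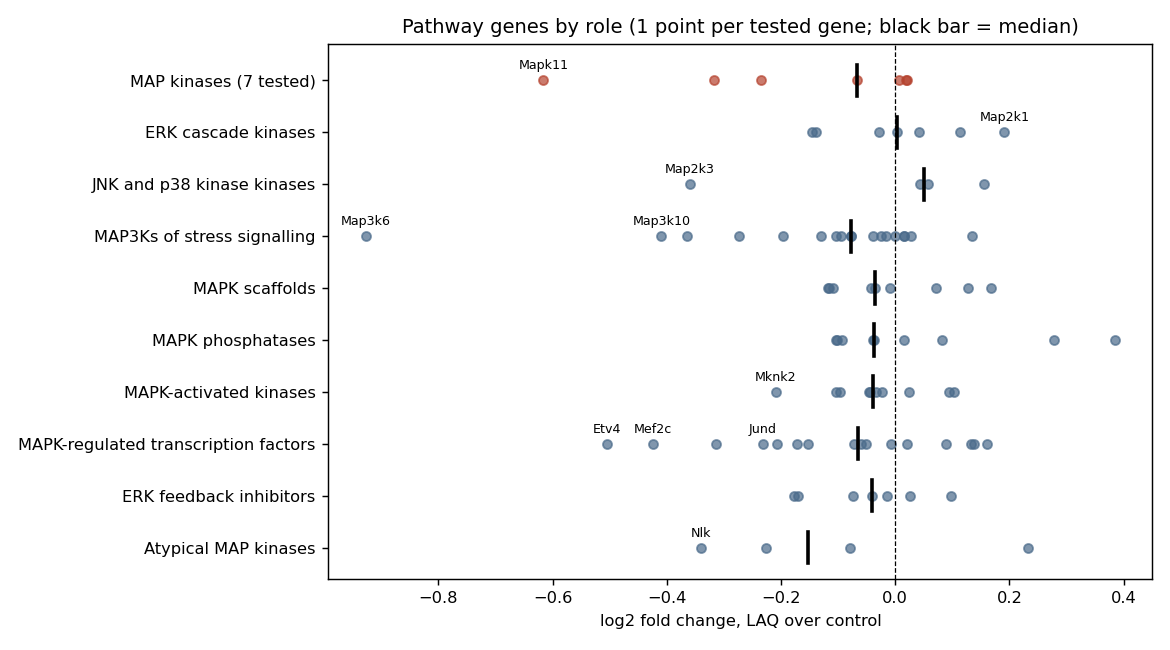
Log2 fold change of LAQ over control for each tested gene of the MAP kinase family (red, top row) and of the 9 pathway lists (blue), with a black bar at each list's median. The list medians lie within 0.1 of 0, except that of the atypical kinases (-0.15), and the points farthest to the left are Map3k6 (-0.93), Mapk11 (-0.62) and Etv4 (-0.51).

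For each tested kinase the 2 genes with the most similar profile of log2 CPM over the 8 libraries were found by Pearson's r. These are the best among all genes whose mean log2 CPM reached 1, which raises r by selection, and the libraries share the groups and the dissection. Mapk11 was most like Fchsd1 (r = 0.98, Spearman's rho = 0.95, 8 libraries) and Camk2n2 (r = 0.98, rho = 0.95), an inhibitor of the calcium/calmodulin kinase CaMKII that stood at 40.8 CPM in LAQ and 61.0 CPM in control. Mapk10 was most like Prnp (r = 0.99, rho = 0.98), the prion protein gene, and Pls3 (r = 0.99, rho = 1). Mapk9 was most like the potassium channel gene Kcna6 (r = 0.97, rho = 0.90) and the neuronal calcium sensor gene Ncs1 (r = 0.95, rho = 0.98), and Mapk8 like Astn2 (r = 0.98, rho = 0.98) and Gm13562 (r = 0.97, rho = 1). Mapk3 was most like Coa3 (r = 0.98, rho = 0.98) and Plekhj1 (r = 0.97, rho = 0.90), Mapk14 like Ubxn4 (r = 0.93, rho = 0.81) and Ccdc28b (r = 0.92, rho = 0.76), and Mapk12 like Mfng (r = 0.97, rho = 0.95) and Gm16596 (r = 0.96, rho = 0.90). No member was among the 2 most similar genes of another member.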

How the data were processed

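Poly(A) RNA of the corpus callosum was sequenced in 8 libraries. The authors deposited raw read counts per gene symbol, whole numbers that were not normalized, and these counts were analysed. A second deposited table of normalized counts was not used, and 0 columns of other samples were present. The submitters' processing notes name bcl2fastq 2.17.1.14, STAR 2.5.2b, HTSeq, DESeq2 1.10.1 and GRCm38.p3. The annotation release and strand setting are not given in the sources used here.

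Groups came from the sample titles. Genes were filtered with edgeR's filterByExpr (minimum count 10, minimum total 15), which kept 15771 of the 25164 genes with a count, scaled by TMM, and compared in R 4.3.3 with edgeR 4.0.16 (and limma 3.58.1) by the two-sided quasi-likelihood test, with Benjamini-Hochberg adjustment over all genes and a threshold of 0.05. SE is the size of the log2 fold change over the square root of F. CPM used TMM factors, and log2 CPM a prior count of 2. Alternatives covered scaling, filters, DESeq2 1.42.0, voom, robust edgeR, marker scores as covariates, and each library left out. In counts simulated for LAQ against control (15771 genes), 50 genes were changed at each of 1.5-, 2-, 3- and 4-fold. There the fit recovered 52% of genes changed 1.5-fold and 86% of those changed 2-fold, with 12 false calls among 177. The simulated spread of each gene was the one edgeR estimated from the measured libraries. Each gene was drawn on its own, so shifts shared by many genes of a library were not simulated. On the measured counts the same fit called 0 of 15771 genes. The recovery rates therefore describe the simulated counts only and are not taken as the power of this comparison. Of 87 pathway symbols 86 were found.

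Genes named were all members, the up to 3 genes of smallest p in each pathway list, and 2 genes of most similar profile per member. Fos, Egr1, Junb and Jun, the single cortical markers and the neighbours of Mapk11 were added after their values were seen. Members and lists were chosen with earlier results of these data known. Exon lengths and positions came from GENCODE M21, and figures were drawn with matplotlib 3.10.9.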

Additional observations from a re-analysis of the deposited data

Results flagged for a closer look

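Within each group of 4 libraries, a library was picked out when its gap to the next was most of the group's range. Among 35 named genes in 70 groups this found 3, and chance gives about 1 in 20. Map2k1 stood at 315 CPM in LAQ 7, against 397 to 411 CPM in the other LAQ libraries. Map2k4 stood at 190 CPM in LAQ 7, against 247 to 254 CPM in the others of that group. Map2k2 stood at 133 CPM in control 2, against 128 CPM in each of the other control libraries. No member of the MAP kinase family was picked out.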

How the results depend on the processing

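With all 8 libraries, edgeR called 0 genes in all, 0 members and 0 pathway genes, also with median-of-ratios scaling, library size alone, a filter of 1 CPM in 4 libraries, robust estimation and limma voom. Without an expression filter it called 25 genes, of which 1 was a member (Mapk11). DESeq2 called 129 genes, with 1 member (Mapk11) and 1 pathway gene (Mef2c). With the cortical neuron score as covariate 620 genes were called, with 1 member (Mapk11) and 3 pathway genes (Jun, Map2k1 and Map2k3), and with the myelin score 417, with 1 member (Mapk11) and 1 pathway gene (Map2k1). Leaving out each library in turn gave 0 to 339 genes, 0 to 1 member and 0 to 3 pathway genes, the highest values all without LAQ 7 (Mapk11, and Map2k1, Map2k3 and Mef2c). The cause was not tested. Nothing is read from the member calls, since the family was chosen with this comparison in view. Of 119 member log2 fold changes recomputed over 17 alternatives, 116 moved by less than the spread between replicates. The other 3 moved with the myelin score, which largely followed the groups, to 0.09 for Mapk3, 0.28 for Mapk10 and -0.80 for Mapk11. Mapk11, Mapk8, Mapk9 and Mapk12 kept a negative sign in all of them. No paired analysis was possible because the groups share no replicate number. Depth limits Mapk13 (3 to 13 reads per library) and Mapk12 (33 to 68).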
